A study of Homo sapiens with 6 samples.

Results

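Kinesins are motor proteins that turn ATP hydrolysis into movement along microtubules or, in some families, into the removal of tubulin from microtubule ends. One group builds the mitotic spindle, moves and aligns chromosomes and completes cytokinesis, and its transcripts are known to accumulate in dividing cells as they approach mitosis. Another group carries organelles, vesicles, RNA and ciliary cargo in cells at any stage, and several of its members are best known from neurons. The genes described here are those of the kinesin superfamily that carry a KIF or KIFC symbol and had a mean count of at least 10 over the 6 libraries. The table held 42 such symbols on 45 rows, and 34 of them passed that minimum, out of 36884 genes in all. KIFC1 was the symbol with more than 1 row, and its row of highest mean was used. By textbook role, 12 of the 34 are mitotic kinesins, 13 are transport kinesins and 9 are neither. The last group holds ciliary and atypical members, KIF2A, a microtubule depolymerase of both spindles and neurites, and KIF21A and KIF21B, which restrain microtubule growth. All 34 also passed the filter on low counts used for testing. The member nearest to the minimum was KIF26B, with a mean count of 40.8, and the gene nearest below it was KIF5A, with 2.33. The other 7 symbols below the minimum were KIF1A, KIF2B, KIF4B, KIF12, KIF19, KIF25 and KIF26A, with between 1 and 10 counts in all 6 libraries together.

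RNA was sequenced from RPE1, an immortalized and non-transformed human retinal pigment epithelial line, in which CRISPR-Cas9 had been used to inactivate LATS1 and LATS2, the kinases that restrain YAP and TAZ in the Hippo pathway. Both groups carry this inactivation, so every value below is from cells without LATS kinases. One group (siCon, 3 libraries) received control siRNA and the other (siMK5, 3 libraries) siRNA against MK5, the protein kinase encoded by MAPKAPK5, for 48 h. The labels do not say whether the edited cells are 1 clone. The submitters call the libraries of a group biological replicates, but nothing in the labels says that they came from separate cultures, so p-values measure the spread between these libraries, which may in part be technical.

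The libraries held between 27188074 and 28236773 counts. Levels are given as CPM, the count of a gene relative to its library's total after TMM scaling. MAPKAPK5 (ENSG00000089022), the siRNA's target, fell from 32.0 ± 3.30 to 15.9 ± 1.66 CPM (mean ± SD, n = 3 per group; log2 fold change −1.01 ± 0.14, edgeR adjusted p = 0.00169). Of the retinal pigment epithelium markers, MITF, OTX2 and PAX6 were at 54.1, 32.4 and 56.3 CPM in controls, while RPE65, RLBP1, TYR and TTR were at under 0.1 CPM. The epithelial keratins KRT8 and KRT18 were at 642 and 148 CPM, but CDH1 was at 0.124 CPM and EPCAM had no count. Leukocyte markers summed to at most 0.474 CPM in any library and endothelial markers to at most 4.98 CPM. Of the neuronal markers STMN2 had no count, RBFOX3 and SYN1 were under 0.25 CPM in every library, and SYT1 was at 33.6 CPM in controls. Of the mesenchymal markers, VIM, FN1 and CDH2 were at 3811, 3324 and 409 CPM in controls. COL1A2 was under 0.25 CPM in every library. VIM, FN1, CDH2, SYT1, OTX2 and PAX6 did not reach an edgeR adjusted p under 0.05. Some markers moved with the treatment: MITF, KRT8, KRT18 and, at low levels, PMEL and VWF fell, while COL1A1 and SNAP25 rose, SNAP25 from 1.24 to 6.83 CPM. Their part in the kinesin results was not tested.

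Control replicate 1 stood apart from control replicates 2 and 3, and kinesins were among the genes concerned. All 12 mitotic members were higher in it than the mean of the other controls, by a median of 0.96 on the log2 scale (CPM with 0.5 added). At least 1.5-fold excess was seen in 9 of 12, against 14.1% of all tested genes. Transport kinesins spread in both directions in this library, with 6 of 13 at least 1.5-fold below the other controls, against 17.5% of all tested genes, and 1 of 13 at least 1.5-fold above them. MK5 siRNA replicate 1 differed less from its group, with medians of −0.20 for mitotic and 0.16 for transport members. Past 1.5-fold were 2 of 34 members, both downward, against 666 downward and 377 upward of 13431 tested genes. Beside most results that moved with replicate 1, the value without it or the change in each replicate pair is given. The fit without replicate 1 in both groups used replicates 2 and 3 of each group only. In it 37.9% of all tested genes rose and 37.8% fell, so a call there was common. The variation between libraries that edgeR estimated was 4.63% for replicates 2 and 3, against 21.2% over all libraries.

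**Figure D1:**
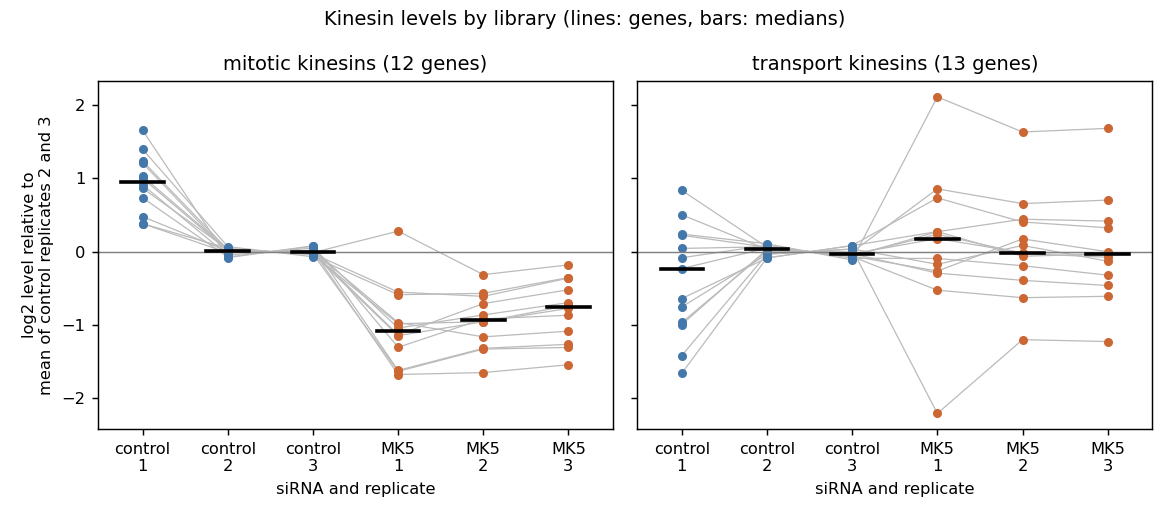
Level of each mitotic kinesin (left, 12 genes) and transport kinesin (right, 13 genes) in each library, as the log2 difference of CPM with 0.5 added from the mean of control replicates 2 and 3 (y axis). Lines join the values of 1 gene and black bars are medians; the mitotic median is 0.96 in control replicate 1 and −1.09, −0.94 and −0.76 in MK5 siRNA replicates 1, 2 and 3, while the transport medians lie between −0.23 and 0.18.

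Before the values, the stretch just upstream of the start is shown for 7 members. In the wider window that was searched, most mitotic kinesins share short words that the transport kinesins mostly lack. RefSeq promoter windows (GRCh38.p14, 250 bases before to 50 after the start) matched 28 of the 34 members, namely 12 mitotic, 10 transport and 6 other. Words were searched on both strands. The cell cycle genes homology region was searched as TTTGAA, which reads TTCAAA where it lies on the opposite strand. Its other form was TTTAAA, which reads alike on either strand. The CCAAT box reads ATTGG where it lies on the opposite strand. The E2F words were TTTCCCGC, TTTGGCGC, TTTCGCGC and TTTGCCGC. The words stand in capitals, with the 120 bases before the start written 5′ to 3′ on the gene's strand. KIF20A, KIF23, KIF11 and KIF15 are mitotic members that fell, KIF18A is the mitotic member that did not pass, and KIF3B and KIF16B are transport members that rose.
KIF20A (chr5:138178992-138179111, + strand): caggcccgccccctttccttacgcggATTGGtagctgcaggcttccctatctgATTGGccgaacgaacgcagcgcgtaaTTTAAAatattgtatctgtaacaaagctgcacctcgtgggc
KIF23 (chr15:69414229-69414348, + strand): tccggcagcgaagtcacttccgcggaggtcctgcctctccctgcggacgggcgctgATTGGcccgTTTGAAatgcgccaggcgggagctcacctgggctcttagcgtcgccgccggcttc
KIF11 (chr10:92593010-92593129, + strand): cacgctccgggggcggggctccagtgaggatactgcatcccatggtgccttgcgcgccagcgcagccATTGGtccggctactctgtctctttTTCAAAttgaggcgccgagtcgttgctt
KIF15 (chr3:44761674-44761793, + strand): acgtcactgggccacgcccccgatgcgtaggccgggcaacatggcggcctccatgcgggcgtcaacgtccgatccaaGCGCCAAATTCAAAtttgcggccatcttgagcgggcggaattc
KIF18A (chr11:28108157-28108276, − strand): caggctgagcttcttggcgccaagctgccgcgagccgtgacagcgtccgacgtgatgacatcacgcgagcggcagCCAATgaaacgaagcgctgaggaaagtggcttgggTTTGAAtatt
KIF3B (chr20:32277531-32277650, + strand): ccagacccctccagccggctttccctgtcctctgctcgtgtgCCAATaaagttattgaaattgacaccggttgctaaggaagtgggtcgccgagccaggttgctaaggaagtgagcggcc
KIF16B (chr20:16573449-16573568, − strand): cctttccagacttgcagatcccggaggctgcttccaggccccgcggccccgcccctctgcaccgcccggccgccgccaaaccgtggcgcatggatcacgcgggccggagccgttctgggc

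Over the whole 300-base window, a homology-region word in either form was found in 11 of 12 mitotic kinesins (91.7%), in 2 of 10 transport kinesins and in none of the 6 others. The same words were found in 24.3% of the 27305 promoters in the table and in 15.8% of those of tested genes. KIF22 was the mitotic member without one. CCAAT was found in 10 of 12 mitotic, 3 of 10 transport and 2 of 6 other kinesins, against 36.7% of tested genes. Both kinds of word occurred together in 9 of 12 mitotic kinesins, in 1 of 10 transport kinesins (KIF5B) and in 6.45% of tested genes. An E2F word was found in KIF15 alone, against 5.35% of tested genes, and in KIF15 it abuts the homology-region word, so that both stand in 1 run of capitals. In all 11 mitotic members the word nearest to the start began between position −55 (KIF23) and position 25 (KIF20B) relative to it, whereas in the 2 transport members it began at −140 (KIF5B) and −241 (KIF16B). KIF18B, KIF20B and KIFC1 had the word past the start only. KIF14 had words at −198 and 2, and the word of KIF2C began at −3 and crossed the start. The mitotic stretches shown are thus of members that hold a word wholly within the 120 bases before the start. These matches describe the letters of the window and were not tested as binding sites or against the changes.

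Mitotic kinesins were lower after MK5 siRNA. Of 12, 11 fell, none rose and KIF18A did not pass (quasi-likelihood test in edgeR, called at a Benjamini-Hochberg adjusted p under 0.05), where 23.7% of all 13431 tested genes fell and 22.5% rose. Log2 fold changes (MK5 siRNA over control siRNA) ran from −1.90 to −0.47, with a median of −1.27 against 0.00 over all tested genes. A fall of at least 2-fold was called in 10 of 12, against 11.5% of all tested genes. In 11 of 12 every MK5 siRNA library lay below every control library, as in 29.8% of all tested genes. The 12 genes summed to 1641, 884 and 884 CPM over control libraries 1 to 3, and to 423, 439 and 491 CPM over the matching MK5 siRNA libraries. In bulk RNA, fewer cells in the phases that express these genes and less RNA per cell cannot be told apart. Without control replicate 1, 11 of 12 still fell, with a median of −0.92 (32.1% of all tested genes fell and 32.3% rose). Without replicate 1 in both groups, all 12 fell, with a median of −0.85 (37.8% of all tested genes fell and 37.9% rose). With replicate number as a block 8 of 12 fell (median −1.21), where 3205 of 13431 tested genes fell. The count was also 8 when any 1 of the MK5 siRNA libraries was left out (medians from −1.37 to −1.18). Without MK5 siRNA replicate 1, 2 and 3, 2606 of 13773, 2103 of 13677 and 2162 of 13676 tested genes fell. On library totals without a scaling factor 9 of 12 fell, where 2714 of 13431 tested genes fell.

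**Figure D2:**
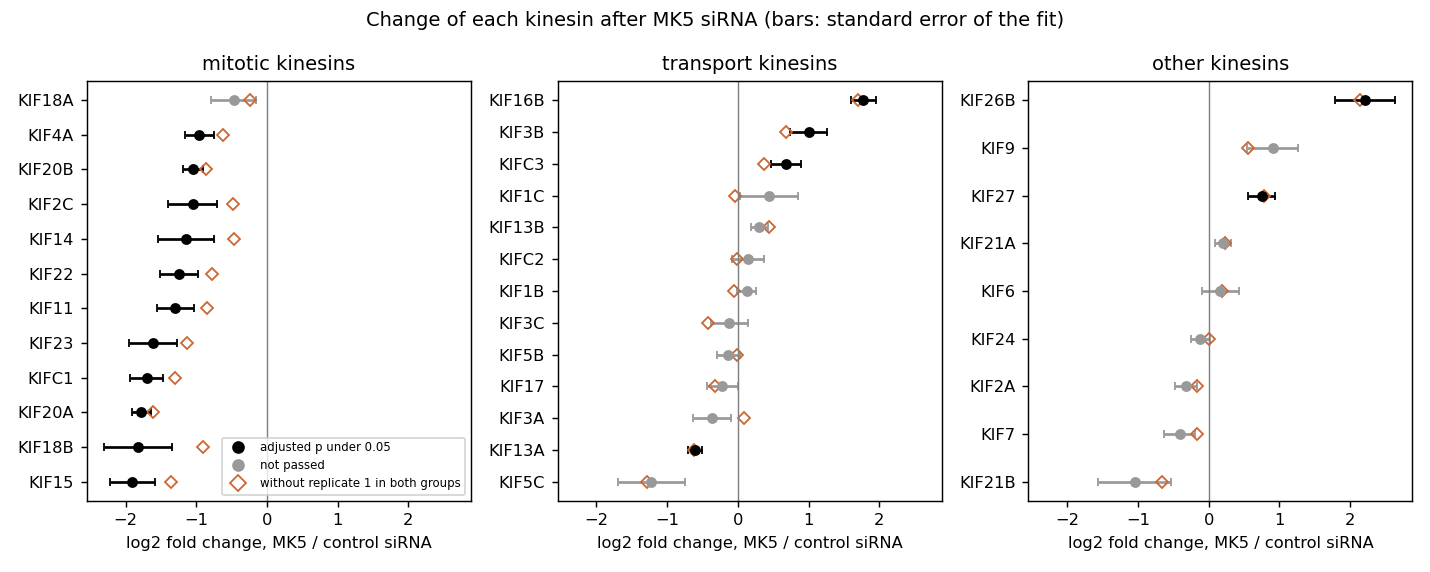
Log2 fold change of each kinesin, MK5 siRNA over control siRNA (x axis), with the standard error of edgeR's fit as bars, by class. Black points passed at an adjusted p under 0.05, grey points did not, and open diamonds give the value without replicate 1 in both groups; the mitotic members lie between −1.90 and −0.47, while transport members lie on both sides of 0, from −1.23 to 1.78.

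The 5 motors of the spindle midzone and of cytokinesis all fell, by −1.78 to −0.96. KIF20A (ENSG00000112984), which brings the chromosomal passenger complex to the midzone, was at 174, 132 and 135 CPM in controls and at 41.3, 42.04 and 45.3 CPM after MK5 siRNA, with replicates given here and below in the order 1, 2, 3. The groups were far apart. The MK5 siRNA libraries were close together, and control replicate 1 was the high library among the controls. Its log2 fold change of −1.78 ± 0.14 (3.42-fold lower, edgeR adjusted p = 0.000276) had the smallest adjusted p of the 34 members, and it was −1.61 without replicate 1 in both groups. KIF23 (ENSG00000137807), the motor subunit of the centralspindlin complex, was at 234, 100.3 and 101 CPM in controls and at 51.2, 44.6 and 47.1 CPM after MK5 siRNA. Control replicate 1 was thus the high library, and the change of −1.61 ± 0.34 (edgeR adjusted p = 0.00851) was −1.07 without it. KIF20B, a cytokinesis motor, fell from 122 ± 19.7 to 58.8 ± 4.78 CPM (−1.05 ± 0.14, edgeR adjusted p = 0.00163). KIF4A, a chromokinesin that limits microtubule growth at the midzone together with PRC1, fell from 59.8 ± 12.1 to 30.8 ± 6.55 CPM (−0.96 ± 0.21, edgeR adjusted p = 0.00945). Its value was −0.62 without replicate 1 in both groups. Its near-identical copy KIF4B had 10 counts in all libraries together, and reads of both could be exchanged. KIF14, which acts in cytokinesis with citron kinase, was at 101, 39.9 and 36.2 CPM in controls and at 25.1, 25.5 and 29.7 CPM after MK5 siRNA. Its change of −1.14 ± 0.39 passed narrowly (edgeR adjusted p = 0.0491). It was −0.50 without control replicate 1, and the call was lost when any 1 of the MK5 siRNA libraries was left out (adjusted p from 0.103 to 0.143), with replicate number as a block (adjusted p = 0.0915) or on library totals without a scaling factor (adjusted p = 0.0589).

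Motors that build and focus the spindle fell as well. KIF11 (ENSG00000138160), which slides antiparallel microtubules apart to make the spindle bipolar, was at 239.7, 134 and 128 CPM in controls and at 59.0, 67.3 and 78.6 CPM after MK5 siRNA. The groups did not overlap, and the change was −1.29 ± 0.26 (2.45-fold lower, edgeR adjusted p = 0.00716), or −0.84 without replicate 1 in both groups. KIF15 (ENSG00000163808), which can stand in for KIF11 in keeping the spindle bipolar, was at 52.4, 26.03 and 24.9 CPM in controls and at 7.84, 9.81 and 9.96 CPM after MK5 siRNA. This was the largest fall of the family, 3.74-fold (−1.90 ± 0.32, edgeR adjusted p = 0.00330), and it was −1.36 without replicate 1 in both groups. KIFC1 (ENSG00000237649), a minus-end motor that focuses spindle poles and clusters centrosomes, was at 126, 71.8 and 79.6 CPM in controls and at 24.2, 30.0 and 31.2 CPM after MK5 siRNA (−1.70 ± 0.24, edgeR adjusted p = 0.00171). All its MK5 siRNA libraries lay below all controls, and its replicate pairs gave −2.36, −1.25 and −1.34. The other 3 KIFC1 rows of the table, under further identifiers, had no count.

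Of the 4 motors that act on chromosomes and on microtubule ends, 3 fell. KIF18B (ENSG00000186185), a plus-end motor that shortens astral microtubules together with KIF2C, was at 132, 39.2 and 43.9 CPM in controls and at 16.5, 21.7 and 22.5 CPM after MK5 siRNA. It changed by −2.96 in replicate pair 1 and by −0.84 and −0.95 in pairs 2 and 3. Its fitted value of −1.82 ± 0.48 (edgeR adjusted p = 0.0190) was −1.03 without control replicate 1, and the call ended when any 1 of the MK5 siRNA libraries was left out (adjusted p from 0.0565 to 0.0790) or with the replicate block (adjusted p = 0.0576). KIF2C, the depolymerase that corrects faulty attachments of chromosomes, fell from 94.5 ± 51.3 to 45.6 ± 4.25 CPM (−1.05 ± 0.35, edgeR adjusted p = 0.0427). The value was −0.50 without control replicate 1, and the call was lost when any 1 of the MK5 siRNA libraries was left out (adjusted p from 0.0921 to 0.127), with the block (adjusted p = 0.0712) and on library totals (adjusted p = 0.0512). KIF22, a chromokinesin that pushes chromosome arms, fell from 105 ± 41.4 to 44.2 ± 5.36 CPM (−1.24 ± 0.27, edgeR adjusted p = 0.00932; −0.78 without replicate 1 in both groups). KIF18A (ENSG00000121621), which dampens chromosome oscillations at the metaphase plate, was at 58.3, 29.2 and 28.6 CPM in controls and at 35.2, 23.1 and 25.4 CPM after MK5 siRNA. Here the groups overlapped, since MK5 siRNA replicate 1 lay above control replicates 2 and 3, and the change of −0.47 ± 0.31 did not pass (edgeR adjusted p = 0.255). It was −0.05 without control replicate 1. Without replicate 1 in both groups it passed at −0.25 (edgeR adjusted p = 0.0105), where 37.8% of all tested genes fell.

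A kinesin without a KIF symbol, CENPE, the kinetochore motor of the kinesin-7 family, also fell. It was at 109, 68.01 and 62.1 CPM in controls and at 36.2, 41.5 and 41.6 CPM after MK5 siRNA, a change of −1.001 ± 0.22 (edgeR adjusted p = 0.00999). STARD9, the other kinesin outside the KIF names and a motor of the pericentriolar material, fell from 24.6 ± 3.80 to 14.2 ± 0.806 CPM (−0.80 ± 0.15, edgeR adjusted p = 0.00566). Both genes had all MK5 siRNA libraries below all controls. By replicate pair, CENPE changed by −1.57, −0.71 and −0.57 and STARD9 by −0.89, −0.80 and −0.61.

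Transport kinesins did not share a direction. Of 13, 3 rose, 1 fell and 9 did not pass, where 22.5% of all tested genes rose and 23.7% fell. The share that rose was thus near that of all genes. The median log2 fold change was 0.12, and −0.02 without replicate 1 in both groups. Rises of at least 2-fold were called in 2 of 13, against 10.8% of all tested genes. Every MK5 siRNA library lay above every control library in 4 of 13, as in 30.6% of all tested genes. They summed to 1001, 1171 and 1169 CPM over control libraries 1 to 3, and to 1444, 1247 and 1237 CPM over the matching MK5 siRNA libraries. The mitotic class thus went from 58.5%, 40.4% and 40.5% of the CPM of all 34 kinesins in controls to 21.1%, 24.1% and 26.3% after MK5 siRNA. The number of calls moved with single libraries. Without MK5 siRNA replicate 1, 1 member rose, where 2502 of 13773 tested genes rose. Without control replicate 1, 4 rose and 3 fell, where 32.3% of all tested genes rose and 32.1% fell. The same counts held without replicate 1 in both groups, where 37.9% of all tested genes rose and 37.8% fell. None of these shares exceeded that of all genes.

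KIF16B (ENSG00000089177), the motor that carries early endosomes toward microtubule plus ends, was at 17.0, 15.4 and 13.2 CPM in controls and at 63.6, 45.5 and 47.1 CPM after MK5 siRNA. All MK5 siRNA libraries were far above all controls. It rose 3.42-fold (1.78 ± 0.18, edgeR adjusted p = 0.000562). The 3 replicate pairs gave 1.88, 1.53 and 1.80, and it passed in all 12 other fits, between 1.61 and 1.88. KIF3B (ENSG00000101350), a motor subunit of the heterotrimeric kinesin-2 that drives intraflagellar transport, was at 64.7, 128 and 127 CPM in controls and at 231, 200.5 and 207 CPM after MK5 siRNA (1.00 ± 0.26, edgeR adjusted p = 0.0178). Control replicate 1 was the low library, and the rise was 0.69 without replicate 1 in both groups; leaving out MK5 siRNA replicate 1 ended the call (adjusted p = 0.0620). KIF3A, its partner in the same motor, was at 39.8, 23.04 and 21.1 CPM in controls and at 18.3, 24.97 and 22.1 CPM after MK5 siRNA, which overlap (−0.36 ± 0.26, edgeR adjusted p = 0.293). In replicate pairs 2 and 3 KIF3A changed by 0.11 and 0.06. KIF3C (ENSG00000084731), the third kinesin-2 motor subunit, was at 53.4, 109 and 105 CPM in controls and at 87.2, 81.3 and 77.5 CPM after MK5 siRNA. Its overall value of −0.12 ± 0.26 (edgeR adjusted p = 0.728) joined 0.70 in pair 1 to −0.42 and −0.43 in pairs 2 and 3. Without replicate 1 in both groups it passed as a fall, at −0.43 (edgeR adjusted p = 5.19e-06), where 37.8% of all tested genes fell.

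KIFC3 (ENSG00000140859), a minus-end motor at cell junctions and on Golgi membranes, was at 86.8, 128 and 144 CPM in controls and at 226, 179.8 and 170.1 CPM after MK5 siRNA. It rose by 0.68 ± 0.21 (edgeR adjusted p = 0.0327), by 0.37 without replicate 1 in both groups. The call was lost when control replicate 2 or any 1 of the MK5 siRNA libraries was left out (adjusted p from 0.0565 to 0.106) and with the block (adjusted p = 0.0766). KIF13A (ENSG00000137177), a motor of recycling endosomes, was the 1 transport kinesin that fell. It was at 114, 116 and 105 CPM in controls and at 76.5, 71.3 and 72.2 CPM after MK5 siRNA, with little spread in either group (−0.61 ± 0.10, edgeR adjusted p = 0.00268), and it passed in all 12 other fits. KIF13B, its closest relative, was at 29.5 ± 2.99 CPM in controls and 36.4 ± 2.31 CPM after MK5 siRNA (0.31 ± 0.12, edgeR adjusted p = 0.0778). Without replicate 1 in both groups KIF13B passed as a rise of 0.44 (edgeR adjusted p = 3.99e-05), opposite to KIF13A at −0.62 in the same fit. There 37.9% of all tested genes rose and 37.8% fell.

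The conventional kinesin heavy chains differed among themselves. KIF5B (ENSG00000170759), the ubiquitous heavy chain, was at 436, 314 and 301 CPM in controls and at 348, 305 and 304 CPM after MK5 siRNA. The groups overlapped and the change of −0.14 ± 0.16 did not pass (edgeR adjusted p = 0.525). KIF5C, a heavy chain best known from neurons, was at 4.597, 12.8 and 13.5 CPM in controls and at 2.44, 5.42 and 5.32 CPM after MK5 siRNA. Replicate 1 was low in both groups, so the groups overlapped although each replicate pair fell (−0.79, −1.17 and −1.26), and the change of −1.23 ± 0.47 did not pass (edgeR adjusted p = 0.0713). It passed with the replicate block (−1.17, edgeR adjusted p = 0.00768) and without replicate 1 in both groups (−1.29, edgeR adjusted p = 3.75e-09). In the latter fit 37.8% of all tested genes fell. Of the kinesin-3 motors, KIF1C was at 59.1, 177 and 199 CPM in controls and at 228, 180.1 and 184 CPM after MK5 siRNA, so that its 0.44 ± 0.41 (edgeR adjusted p = 0.405) came from replicate pair 1, at 1.94, with 0.02 and −0.11 in pairs 2 and 3. KIF1B (0.12 ± 0.13), KIFC2 (0.14 ± 0.23) and KIF17 (−0.22 ± 0.22) did not pass either, with edgeR adjusted p from 0.435 to 0.628.

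**Figure D3:**
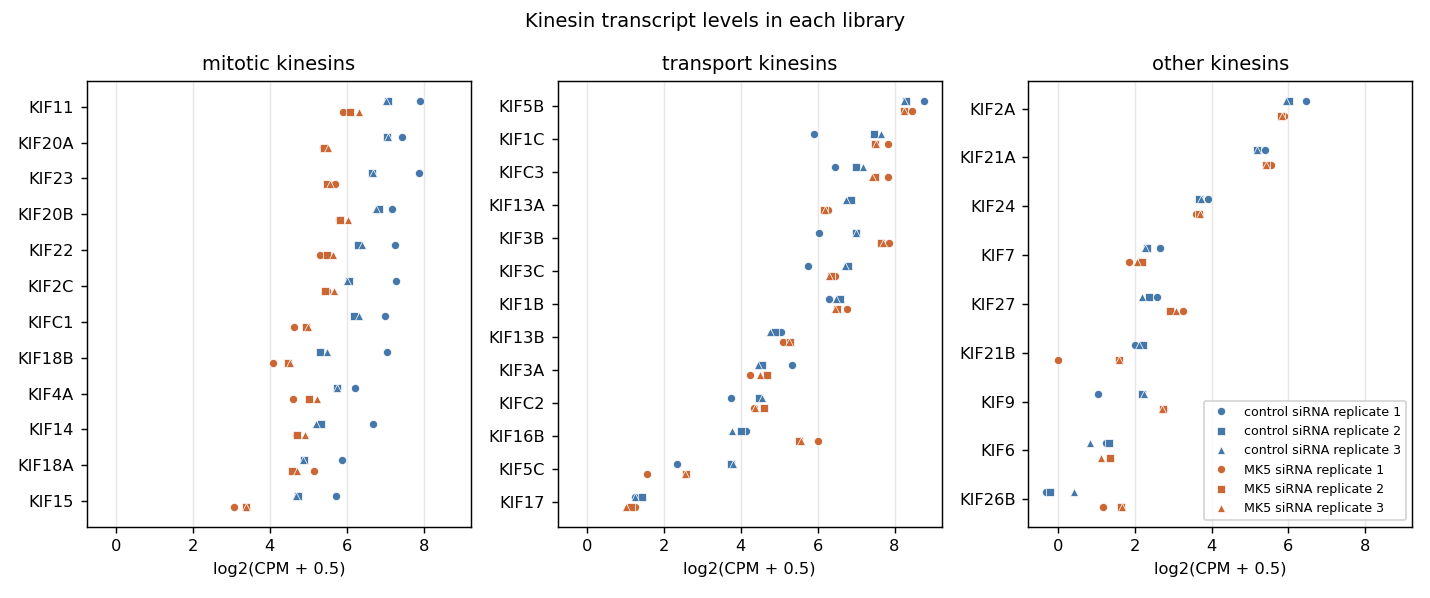
Level of each kinesin in each of the 6 libraries as log2 of CPM with 0.5 added (x axis), by class, ordered by the control mean; blue marks are control and orange marks MK5 siRNA libraries, and circles, squares and triangles are replicates 1, 2 and 3. Blue circles (control replicate 1) stand to the right in all 12 mitotic rows, and orange marks lie left of all blue marks in 11 of them.

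Of the 9 kinesins in neither class, 2 rose, none fell and 7 did not pass, with a median of 0.16. The share that rose was near the 22.5% of all tested genes. KIF27 (ENSG00000165115), a ciliary relative of KIF7, was at 5.52, 4.68 and 4.06 CPM in controls and at 9.01, 7.09 and 7.88 CPM after MK5 siRNA (0.75 ± 0.19, edgeR adjusted p = 0.0180). Its groups did not overlap, but the call was lost without control replicate 2 or 3 or MK5 siRNA replicate 1 or 3 (adjusted p from 0.0540 to 0.0721). KIF26B (ENSG00000162849), an atypical kinesin, was at 0.306, 0.369 and 0.841 CPM in controls and at 1.75, 2.64 and 2.69 CPM after MK5 siRNA. With a rise of 2.21 ± 0.42 (edgeR adjusted p = 0.00580) it had the largest change of the family, from 8, 10 and 23 counts, and at such control levels a gene enters the test through the group in which it is high. KIF2A was at 71.0 ± 14.6 and 56.8 ± 1.56 CPM (−0.32 ± 0.15, edgeR adjusted p = 0.129). KIF24 (ENSG00000186638), a centriolar kinesin, gave the value nearest to 0 here, with 14.6, 12.2 and 12.6 CPM in controls and 11.6, 12.3 and 12.4 CPM after MK5 siRNA (−0.12 ± 0.14, edgeR adjusted p = 0.519). KIF7, the kinesin of Hedgehog signaling in cilia, was at 4.84 ± 0.822 and 3.64 ± 0.484 CPM (−0.41 ± 0.21, edgeR adjusted p = 0.154). KIF21B was at 3.52, 4.17 and 3.80 CPM in controls and at 0.511, 2.54 and 2.49 CPM after MK5 siRNA, with replicate 1 as the low library (−1.05 ± 0.52, edgeR adjusted p = 0.139). KIF21A (0.20 ± 0.11), KIF6 (0.16 ± 0.26) and KIF9 (0.90 ± 0.36) had edgeR adjusted p of 0.183, 0.632 and 0.0776. Without control replicate 1, KIF9 and KIF21A passed as rises, which made 4 of 9 in a fit where 32.3% of all tested genes rose, and without replicate 1 in both groups KIF21B and KIF2A also passed as falls.

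Levels were compared between kinesins per length, as CPM per kb of the union of each gene's exons in GENCODE 29. In control libraries KIF5B led with 59.6 ± 12.7 CPM per kb, ranging from 51.3 to 74.2. By the control mean, the next 7 ranks were all mitotic kinesins, from KIF20A (37.1 ± 5.92) and KIF11 (34.5 ± 12.9) to KIF20B (17.8 ± 2.88). This order rested on control replicate 1. In control replicates 2 and 3, the transport motors KIF3B (20.9 and 20.7) and KIF1C (20.7 and 23.2) lay above 4 of these mitotic kinesins. They were KIF2C (18.1 and 17.5), KIF22 (18.1 and 19.4), KIF23 (15.2 and 15.4) and KIF20B (16.6 and 15.6). KIF5B did not overlap KIF20A (33.3 to 43.9), whereas the ranges of KIF20A and KIF11 (26.4 to 49.3) overlapped. So did those of KIFC1, KIF2C, KIF22 and KIF23 in ranks 4 to 7. These ranges hold the excess of control replicate 1 that the genes share. KIF20A lay below KIF11 in control replicate 1 and above it in replicates 2 and 3. Within each control library KIFC1 lay above KIF22 and KIF23, and KIF2C lay above KIF23. KIF2C lay above KIFC1 in control replicate 1 alone. After MK5 siRNA the first ranks were KIF5B (54.3 ± 4.26), KIF3B (34.9 ± 2.58), KIF1C (from 21.0 to 26.5) and KIFC3 (19.99 ± 3.11), all transport motors, with KIF11 (14.1 ± 2.03) in rank 5. The lowest members in controls were KIF26B (0.0351 ± 0.0203), KIF6 (0.146 ± 0.0333) and KIF21B (0.315 ± 0.0264). Exons of genes on the opposite strand overlap 16 of the 34 members in that annotation (7 mitotic, 5 transport and 4 other), by 870 bases in KIF9 and 791 in KIFC2. The strand setting of the counting is not given in the sources used here, so reads of such pairs cannot be told apart.

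Most genes for proteins that work with the mitotic kinesins fell too. Of 23, 19 fell, 1 rose and 3 did not pass, with a median of −1.15, where 23.7% of all tested genes fell and 22.5% rose. CDCA8, a chromosomal passenger protein carried by KIF20A, fell from 93.5 ± 40.6 to 19.6 ± 3.09 CPM (−2.25 ± 0.31), NUF2 of the kinetochore by −1.75 ± 0.34, citron kinase (CIT) by −1.67 ± 0.31 and AURKB by −1.64 ± 0.30, with edgeR adjusted p from 0.00169 to 0.00644. NUMA1, a spindle pole protein, was the 1 that rose (0.65 ± 0.16, edgeR adjusted p = 0.0141). The 3 that did not pass were ECT2 (−0.74 ± 0.32), AURKA (−1.12 ± 0.39) and PLK1 (−0.68 ± 0.40), with edgeR adjusted p of 0.0993, 0.0502 and 0.203. In replicate pairs 1, 2 and 3, ECT2 changed by −1.34, −0.31 and −0.23 and AURKA by −1.87, −0.62 and −0.39. PLK1 changed by −1.56, 0.02 and 0.04. As in the motors, 13 of the 23 were at least 1.5-fold higher in control replicate 1 than in the other controls. The share over all tested genes was 14.1%. In replicate pairs 1, 2 and 3, CDCA8 changed by −3.08, −1.62 and −1.76 and NUF2 by −2.56, −1.22 and −1.05. CIT changed by −2.42, −1.24 and −1.02, AURKB by −2.31, −1.06 and −1.22 and NUMA1 by 1.03, 0.48 and 0.48. Without control replicate 1, 21 of the 23 fell, with a median of −1.02, where 32.1% of all tested genes fell. With the replicate block 18 fell, where 3205 of 13431 tested genes fell. Without MK5 siRNA replicate 1, 2 and 3 the count was 15, 14 and 15. Over all tested genes it was 2606 of 13773, 2103 of 13677 and 2162 of 13676.

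Partners of the transport kinesins moved in both directions, with more rises than falls. Of 20 light chains and cargo adaptors, 7 rose, 1 fell and 12 did not pass, with a median of 0.40, where 22.5% of all tested genes rose and 23.7% fell. KLC4, a kinesin light chain, was at 13.1, 21.5 and 22.2 CPM in controls and at 65.7, 71.8 and 66.5 CPM after MK5 siRNA (1.84 ± 0.21, edgeR adjusted p = 0.000834). Its replicate pairs gave 2.28, 1.72 and 1.56. The light chain KLC2 rose by 0.90 ± 0.15 (edgeR adjusted p = 0.00344) and KLC3 by 1.72 ± 0.55 (edgeR adjusted p = 0.0393), while KLC1 did not pass. KLC3 was at no more than 0.306 CPM in any control, so it entered the test through the group in which it is high. PLEKHM2, which links lysosomes to kinesin-1, rose by 0.86 ± 0.21 (edgeR adjusted p = 0.0147), with 1.57, 0.55 and 0.49 in the replicate pairs. The adaptor TRAK1 of mitochondrial transport fell narrowly (−0.38 ± 0.13, edgeR adjusted p = 0.0496). Without control replicate 1, 11 rose and 3 fell, where 32.3% of all tested genes rose and 32.1% fell. Without replicate 1 in both groups 14 rose and 3 fell, where 37.9% rose and 37.8% fell. With the replicate block 8 rose and 1 fell, where 3154 of 13431 tested genes rose and 3205 fell. Without control replicate 2 or 3 or MK5 siRNA replicate 2 or 3 no member fell.

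The list of intraflagellar transport genes, whose products ride on kinesin-2 in cilia, held 11 rises, no fall and 8 that did not pass among 19, with a median of 0.51, where 22.5% of all tested genes rose. IFT20 rose from 15.9 ± 2.29 to 63.2 ± 4.13 CPM (1.99 ± 0.14), IFT27 by 1.72 ± 0.47, IFT43 by 1.28 ± 0.32 and IFT172 by 1.14 ± 0.13, with edgeR adjusted p from 0.000229 to 0.0229. KIFAP3, the non-motor subunit of the KIF3A and KIF3B motor, was at 28.5, 30.0 and 28.7 CPM in controls and at 42.6, 43.7 and 43.7 CPM after MK5 siRNA (0.57 ± 0.10, edgeR adjusted p = 0.00343). Its libraries were close within each group and apart between them. IFT27 was at 4.10, 15.7 and 16.8 CPM in controls, and its replicate pairs gave 2.87, 1.45 and 1.35. IFT43 was at 6.17, 14.2 and 15.9 CPM in controls, and its pairs gave 2.16, 0.99 and 0.91. Control replicate 1 was the low library for both. In this list 6 of 19 genes were at least 1.5-fold lower in control replicate 1 than in the other controls. The share over all tested genes was 17.5%. The count of rises was 6 without MK5 siRNA replicate 1 or 3, where 2502 of 13773 and 2104 of 13676 tested genes rose. It was 7 without MK5 siRNA replicate 2 or control replicate 3, where 2064 of 13677 and 2313 of 13642 rose. Without control replicate 1 it was 15, beside 3 falls, where 32.3% of all tested genes rose and 32.1% fell. With the replicate block 8 rose, where 3154 of 13431 tested genes rose.

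Cytoplasmic dynein and dynactin, the main minus-end machinery, showed no shared direction. Of 22 tested genes 4 rose, 5 fell and 13 did not pass, with a median of 0.08, where 22.5% of all tested genes rose and 23.7% fell. Without replicate 1 in both groups 8 rose and 9 fell, where 37.9% and 37.8% of all tested genes did. These shares were near those of all genes. The dynein heavy chain DYNC1H1 was at 927 ± 44.4 CPM in controls and 952 ± 58.9 CPM after MK5 siRNA (0.04 ± 0.10, edgeR adjusted p = 0.774). NDEL1, a dynein regulator, rose from 40.1 ± 8.70 to 137 ± 13.2 CPM (1.77 ± 0.17, edgeR adjusted p = 0.000538). DCTN5, a dynactin subunit, fell from 87.5 ± 14.7 to 30.6 ± 5.15 CPM (−1.51 ± 0.18, edgeR adjusted p = 0.00105). The light chain DYNLRB2 rose by 2.32 ± 0.55 (edgeR adjusted p = 0.0132), but it was at no more than 0.405 CPM in any control and entered the test through the group in which it is high.

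**Figure D4:**
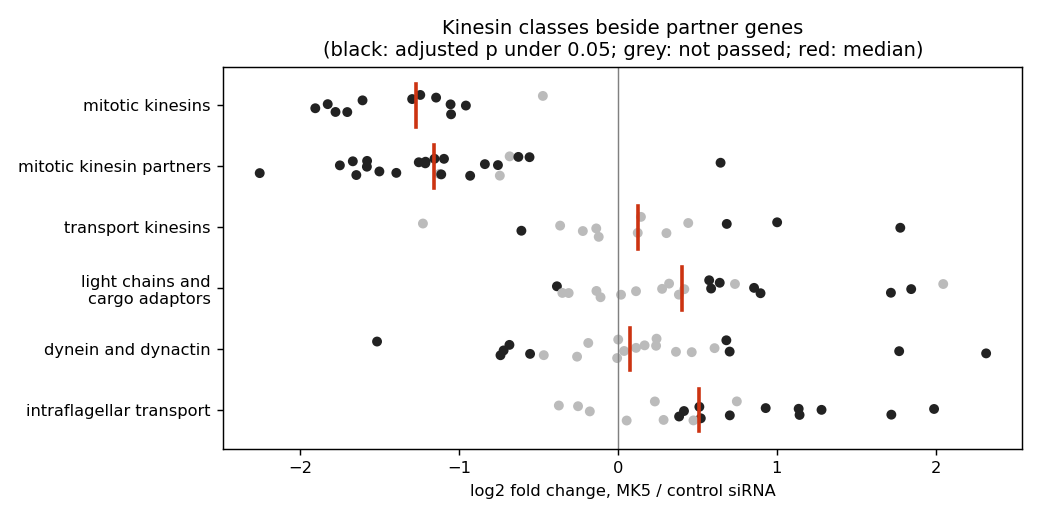
Log2 fold change of each tested gene, MK5 siRNA over control siRNA (x axis), in the mitotic and transport kinesins and in 4 groups of partner genes (rows); black points passed at an adjusted p under 0.05, grey points did not, and red bars are medians. The medians are −1.27 for mitotic kinesins and −1.15 for their partners, against 0.12 for transport kinesins, 0.40 for light chains and adaptors, 0.08 for dynein and dynactin and 0.51 for intraflagellar transport genes.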

How the data were processed

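Per the submitters' processing notes, FastQC, Trimmomatic 0.36, TopHat2 2.1.1, HTSeq 0.9.1 and GRCh37 were used, with no order or settings. The deposited values are whole-number counts per gene, 1 column per library, as their differing totals show. No column was left unused. Genes were filtered by filterByExpr of edgeR 4.0.16 under R 4.3.3 (count 10, total count 15 at the least), with TMM scaling of the totals; its quasi-likelihood test covered 13431 genes, without a block, with Benjamini-Hochberg adjustment, two-sided, at 0.05. The script was tested on simulated data. The standard error is the log2 fold change divided by the square root of F. Changes within a replicate pair, and control replicate 1 against the others, use log2(CPM + 0.5).

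Members and lists were chosen with earlier results of these data known, so lists are described by counts and medians without a test. Named with values in every library were the passing members of largest change in each class, KIF11, KIF5B and the member of each class nearest to 0; other members with single-library values were chosen after their values were seen. Of the other lists, up to 4 passing genes of largest change were named, and NUMA1, ECT2, AURKA, PLK1, TRAK1, KLC1, KIFAP3 and DYNC1H1 were chosen after their values were seen.

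Libraries of the same replicate number deviated together from their group means (r across genes 0.258, 0.206 and 0.248), all above 0.1, which is the sole ground for reading the numbers as pairs; no shared day or batch is named in the labels. The main test has no block, and the blocked fit is given where it changed the call of a kinesin member or the count of calls in a partner list. Between unlike numbers, replicates 2 and 3 gave 0.182 and 0.151, which also lie above 0.1. These values thus do not settle how replicates 2 and 3 pair.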

Additional observations from a re-analysis of the deposited data

How the results depend on the processing

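The fits without 1 library, or without replicate 1 in both groups, moved the counts most; where a group was left with 2 libraries the spread was pooled over the rest. Over these fits the mitotic kinesins that fell numbered from 8 to 12, with medians from −1.45 to −0.85, and their partners that fell from 14 to 21. The number of transport kinesins that rose ran from 1 to 4 and that fell from 1 to 3, with medians from −0.017 to 0.18. Other kinesins ran from 1 to 4 rises and 0 to 2 falls, with medians from −0.033 to 0.23. Light chains and adaptors ran from 6 to 14 rises and 0 to 3 falls, intraflagellar transport genes from 6 to 15 rises and 0 to 3 falls, and dynein and dynactin from 3 to 8 rises and 4 to 9 falls. Over all genes, rises ran from 2064 to 5195 and falls from 2103 to 5177. Members that did not pass and changed sign in 1 or 2 of these fits were KIF5B (−0.26 to 0.057), KIFC2 (−0.065 to 0.27), KIF3C (−0.43 to 0.038), KIF6 (−0.033 to 0.27), KIF1B (−0.047 to 0.19), KIF1C (−0.043 to 0.73) and KIF3A (−0.56 to 0.094). The cause was not tested.

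With library totals in place of a scaling factor, the median of all genes was 0.10, the median of other kinesins 0.27 and that of adaptors 0.50, and 0 adaptors fell. With DESeq2, without the filter on low counts and with the replicate block, 2 transport kinesins fell, KIF5C being the added one. Without the filter 0 adaptors fell. With the replicate block the median of adaptors was 0.48 and 8 of 12 mitotic kinesins fell. Calls that kinesin members lost or gained under the block are given beside each gene. Genes of the partner lists whose call changed under the block are not named. With a mean count of at least 100 for members, 1 other kinesin rose, with a median of 0.044. Fewer counts limit KIF26B, KIF17, KIF6 and KIF21B, with mean counts under 100.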
